A study of Mus musculus with 38 samples.

Results

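The Adarb2/Vip nuclei are cortical interneuron nuclei of the Emx1-Cre mice, chosen by their UMIs (unique molecular identifiers, each standing for 1 captured transcript). A nucleus was counted when Gad1+Gad2 reached 3 UMIs and exceeded Slc17a7+Neurod6, and when Adarb2+Vip reached 3 UMIs and exceeded both Sst+Grin3a+Elfn1 and Pvalb+Eya4+Btbd11. This gave 547 nuclei of 14296 in the 4 libraries, or 43.76% of the 1250 GABAergic nuclei. The levels of the rule genes are therefore a description. All 547 passed the filter on detected genes, which kept 13671 nuclei in all.

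Single-nuclei RNA-seq was made from the cortex of 2 Trim28-KO animals (60 and 73) and 2 control animals (64 and 65) at 3 months of age, after the nuclei had been sorted. Trim28-KO animals were Emx1-Cre +/-; Trim28-fl +/+, with both floxed alleles removed where Cre had been active. Per the study's methods, control animals were Emx1-Cre +/-; Trim28-fl +/-, so that they carried the same Cre and had 1 Trim28 allele removed in the same lineage. A figure legend of the study on adult cortex instead calls the controls Cre-negative, and the data used here were not checked for this. The sires of the cross carried gtRosa, a Cre reporter. Bulk RNA-seq of cortex was available for 3 Trim28-KO (60, 73 and 76) and 3 control (64, 65 and 77) animals. The 4 nuclei libraries held 29127314 to 33524892 UMIs. The Adarb2/Vip nuclei numbered 153 and 173 in Trim28-KO and 122 and 99 in control, with 838603 to 1296896 UMIs per animal and medians of 7233, 6635, 8514 and 7477 UMIs per nucleus in animals 60, 73, 64 and 65. Values below are given in this order of animals.

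Cortical interneurons come from the ganglionic eminences and migrate into the cortex, whereas Emx1-Cre acts in the progenitors of cortical excitatory neurons and macroglia. Interneurons of the caudal ganglionic eminence express the RNA-binding protein gene Adarb2 and the transcription factor genes Prox1 and Nr2f2, and comprise cells that make the peptide VIP as well as neurogliaform Lamp5 cells and Cck/Cnr1 cells. Trim28 is a corepressor that zinc finger proteins bring to DNA, where it recruits the histone methyltransferase Setdb1 and silences retrotransposons. The comparison of Trim28-KO with control in the Adarb2/Vip nuclei thus addresses a lineage that lay outside the deletion but inside the same cortex.

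Most Adarb2/Vip nuclei were not Vip nuclei. No Vip UMI was found in 64.1, 64.7, 61.5 and 51.5% of them, and Vip reached 3 UMIs in 24.8, 23.7, 26.2 and 34.3%. A Vip UMI was also found in 6.78 to 17.4% of Pvalb nuclei and 7.96 to 13.7% of excitatory nuclei, classes that do not make VIP, at medians of 11016 to 11286 and 11230 to 12934 UMIs per nucleus. Of 3 marker lists, the Lamp5 list (Lamp5, Ndnf, Reln, Id2, Kit, Npy, Cplx3) had the most UMIs in 58.8, 61.3, 56.6 and 54.5% of nuclei. The Vip list (Vip, Calb2, Crh, Chat, Tac2, Penk, Crispld2) led in 22.9, 19.1, 27.0 and 34.3%, and the Sncg list (Sncg, Cck, Cnr1, Cxcl14, Slc17a8) in 13.7, 15.0, 10.7 and 5.05%. The label Vip interneuron therefore described a minority, and the nuclei are called Adarb2/Vip nuclei here.

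The lists separated nuclei with different genes, as their definition required. In the nuclei led by the Vip list, Vip lay at 1512, 1434, 1455 and 1337 CPM (a gene's UMIs scaled to the same total of UMIs summed over those nuclei in each animal). Reln, which encodes a secreted matrix protein of neurogliaform cells, lay at 1399, 1391, 1296 and 1707 CPM in the nuclei led by the Lamp5 list and at 14.1 to 39.2 CPM in those led by the Vip list. Cnr1, the cannabinoid receptor gene, lay at 1421 to 2166 CPM in the nuclei led by the Sncg list, although Sncg itself had 0, 2, 0 and 0 UMIs in all Adarb2/Vip nuclei. No nucleus held 3 UMIs of both Vip and Lamp5, which allowed a share of at most 2.11 to 3.66% per animal by the exact upper limit of counting error. Lamp5 reached 3 UMIs in 13.7, 26, 16.4 and 11.1% of the nuclei, so that this limits nuclei with such UMIs and not nuclei that express both genes. Prox1, a factor of this lineage that the lists did not use, was at 275 to 352 CPM in the nuclei led by the Vip list and at 104 to 121 CPM in those led by the Lamp5 list.

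Identity genes outside the rule marked the caudal lineage. Prox1 was at 172, 150, 144 and 165 CPM, against at most 3.43 CPM in any Sst or Pvalb sum and at most 0.564 CPM in excitatory nuclei. Nr2f2 was at 157, 147, 104 and 85.9 CPM, and the ionotropic serotonin receptor gene Htr3a at 22.5, 20.0, 29.6 and 19.1 CPM with at most 0.794 CPM in Sst and Pvalb nuclei. Lhx6, which marks interneurons of the medial eminence, had 3, 1, 7 and 0 UMIs in the Adarb2/Vip nuclei and 48.6 to 90.3 CPM in Sst and Pvalb nuclei. Emx1 had no UMI in the Adarb2/Vip nuclei of any animal, and 12.3 to 16.1 CPM in excitatory nuclei. Crispld2 of the Vip list had no UMI in any class.

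**Figure D1:**
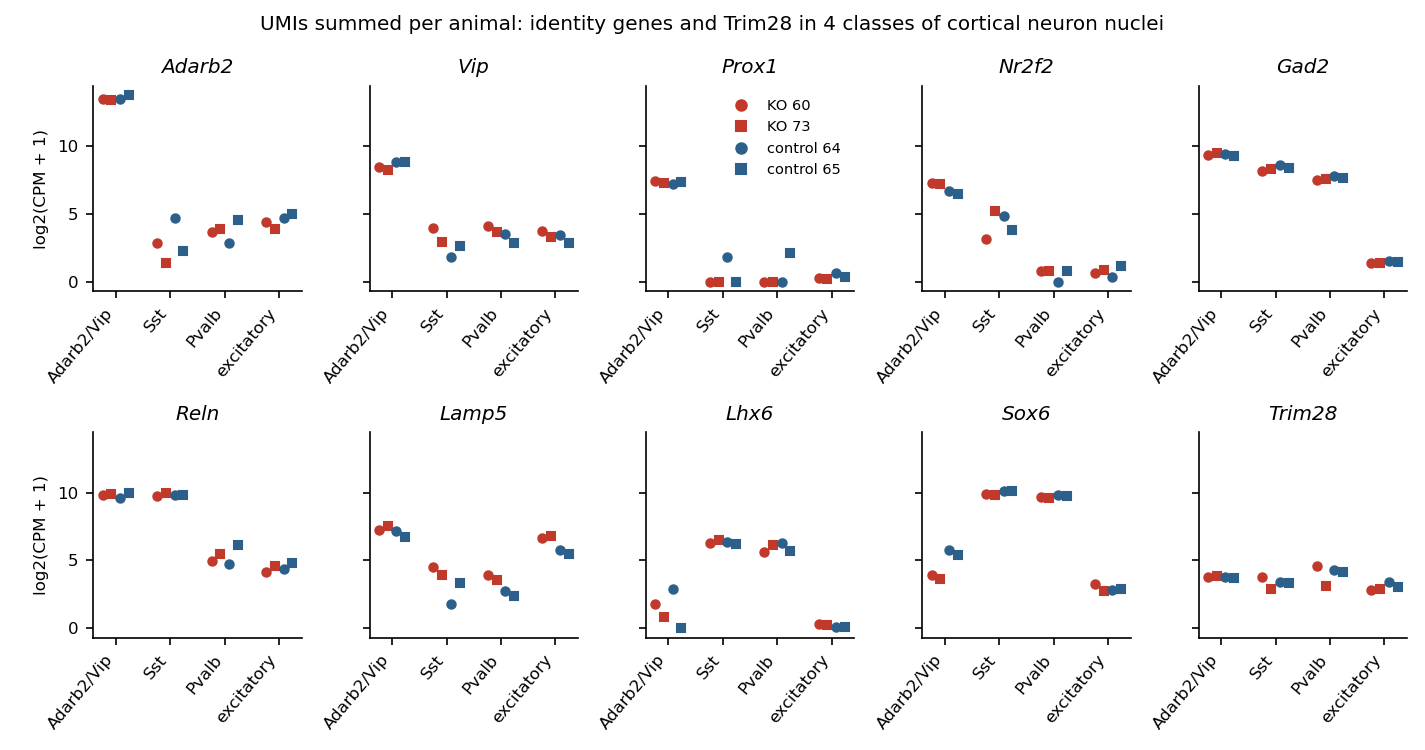
Level of identity genes and of Trim28 in Adarb2/Vip, Sst, Pvalb and excitatory nuclei, on a log2(CPM + 1) axis, with 1 point for the UMIs summed over a class in each animal, Trim28-KO and control in different colours. Adarb2 and Prox1 were high in the Adarb2/Vip nuclei of all 4 animals, and Trim28 was low in every class.

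Relative to the other GABAergic nuclei, the genes with the highest ratios after Adarb2 were Prox1 at 228, Frem1 at 209, Ndnf at 147, Egfr at 120 and Kit at 103. They were followed by Pde11a at 94.3, Rgs12 at 85.1, Sema3c at 79.4, Rxfp1 at 44.8 and Hcrtr2 at 41.2. Frem1 encodes an extracellular matrix protein, Egfr and Kit receptor tyrosine kinases, Pde11a a cyclic nucleotide phosphodiesterase, and Rxfp1 and Hcrtr2 the receptors for relaxin and orexin. Each ratio is the mean level of the 4 animals divided by the mean level in the other GABAergic nuclei, among 3017 genes, and was not tested, since the nuclei were chosen from the same UMIs. The highest ratios rest on few UMIs in the other GABAergic nuclei, where Prox1 had 0, 0, 1 and 5 and Ndnf 0, 2, 1 and 2, so that the order among them is not firm. The lowest ratio in a single animal was 75.01 for Prox1, 38.4 for Frem1 and 72.0 for Ndnf. Egfr lay at 429, 407, 402 and 551 CPM and Pde11a at 312, 386, 515 and 483 CPM.

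Nuclei that carried markers of another class were few. At least 3 UMIs of a marker list of excitatory neurons or glia were found in 5, 6, 14 and 6 Adarb2/Vip nuclei, or 31 in all, and 16 of these (0, 2, 10 and 4) carried oligodendrocyte markers. The summed level of the 6 oligodendrocyte markers was 44.1 and 67.1 CPM in Trim28-KO and 127 and 73.9 CPM in control, and that of the 6 astrocyte markers 135 to 150 CPM. Between 4 and 7 of the 8 vascular and meningeal markers were at 0. At most 20 cell barcodes were shared by any 2 libraries, 36 over the 6 pairs, and 3 Adarb2/Vip nuclei had such a barcode. Near the threshold, 1 GABAergic nucleus had 1 or 2 UMIs of Adarb2+Vip and 1 Adarb2/Vip nucleus had 3, while the medians were 62, 58, 76 and 93.

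Both Trim28-KO animals had a larger share of Adarb2/Vip nuclei among all nuclei than both controls, while the shares among neurons overlapped. They were 4.24 and 4.82% of the kept nuclei in Trim28-KO and 3.58 and 3.23% in control, a mean of 4.53% ± 0.410 against 3.41% ± 0.248 (SD, n = 2 each). The groups did not overlap, and the exact two-sided permutation test over animals gave p = 0.333, the smallest that 2 against 2 allows. The exact 95% binomial intervals, which cover counting error alone, were 3.61 to 4.95% and 4.14 to 5.57% in Trim28-KO and 2.98 to 4.26% and 2.63 to 3.92% in control. With each nucleus thinned to 4000 UMIs and 3383 shallower nuclei left out, the shares were 4.10 and 4.22% against 3.41 and 2.98%. Of neurons they were 8.36 and 9.03% against 9.502 and 7.78%, a difference of 0.0581 percentage points with overlapping groups (exact permutation p = 1). Excitatory nuclei were 41.4 and 43.3% of all nuclei in Trim28-KO and 29.7 and 32.4% in control. Of GABAergic nuclei the Adarb2/Vip nuclei were 45.4 and 47.9% against 45.0 and 35.4%, so that control animal 65 alone lay apart. The nuclei were sorted before loading, and the part of the sort in these shares was not tested.

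**Figure D2:**
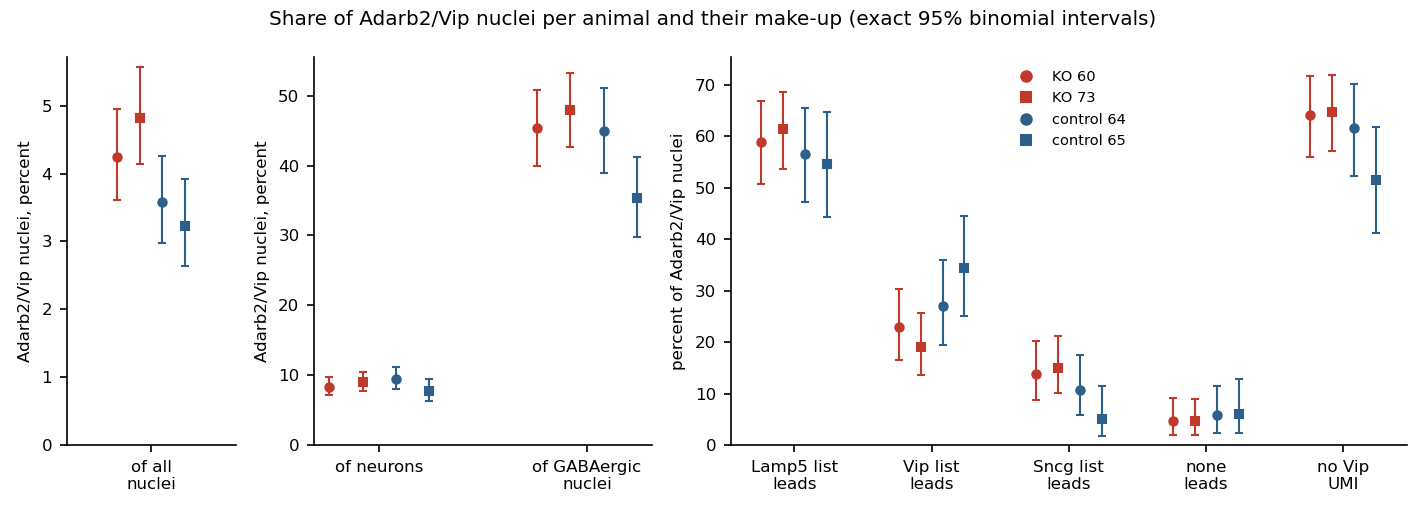
Share of Adarb2/Vip nuclei in each animal, in percent of all kept nuclei, of GABAergic nuclei and of neurons, and the percent of them led by each marker list, with exact 95% binomial intervals as bars. The Trim28-KO animals lay above both controls for all nuclei (4.24 and 4.82% against 3.58 and 3.23%) and overlapped them for neurons.

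Trim28 was barely sampled in the nuclei. In the Adarb2/Vip nuclei it had 15, 17, 14 and 10 UMIs, or 12.5, 13.1, 13.0 and 11.9 CPM, and its log2 fold change in Trim28-KO was 0.04 ± 0.41 (SE; edgeR quasi-likelihood test, adjusted p = 0.989). In excitatory nuclei, the lineage of the deletion, it was at 6.07, 6.56, 9.37 and 7.39 CPM, with a log2 fold change of -0.45 (edgeR adjusted p = 0.181) and groups that did not overlap. In bulk cortex Trim28 was at 6.08, 8.53 and 8.88 CPM in Trim28-KO and at 20.9, 18.98 and 21.4 CPM in control, a log2 fold change of -1.39 ± 0.15 (edgeR adjusted p = 0.000378). The exons removed from the floxed allele are not given in the sources used here, so that a 3′ tag may lie outside them and the nuclei counts do not check the labels. Trim28 (GRCm38 chromosome 7, 12999114 to 13031035, plus strand) is listed as protein-coding.

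No gene passed the test in the Adarb2/Vip nuclei. Of 9939 genes tested between 2 Trim28-KO and 2 control animals, edgeR called 0 higher and 0 lower at an adjusted p under 0.05 (0%), and the lowest adjusted p was 0.101. At an unadjusted p under 0.05 there were 394 higher (3.96%) and 360 lower (3.62%), and DESeq2 called 0 genes with 129 at an unadjusted p under 0.05. In excitatory nuclei of the same animals, edgeR called 646 genes higher (4.18%) and 570 lower (3.69%) of 15462, and with their sums thinned to the UMI totals of the Adarb2/Vip nuclei it called 514 of 9703. The thinned sums still came from 1493, 1554, 1013 and 993 nuclei, so that UMI totals were matched and numbers of nuclei were not. In Sst nuclei 16 genes were called higher (0.205%) and 35 lower (0.448%) of 7812, and in Pvalb nuclei 0 of 10211, with 1286 there (12.6%) at an unadjusted p under 0.05. In simulated counts with the means and depths of the Adarb2/Vip nuclei, the test recovered 43% of 100 genes changed 2-fold and 90% of 100 genes changed 4-fold. Many changes of 2-fold, some of 4-fold and smaller ones could therefore have been missed. Left out in turn, Trim28-KO animals 60 and 73 and control animals 64 and 65 gave 12, 9, 350 and 27 calls.

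The genes with the smallest unadjusted p and higher values in Trim28-KO did not pass the correction. E530001K10Rik had 70, 114, 28 and 27 UMIs, a log2 fold change of 1.35 ± 0.27 (edgeR adjusted p = 0.236), and both Trim28-KO animals lay above both controls. Camk2n1, which encodes an inhibitor of CaM kinase II, had 112, 109, 54 and 33 UMIs and a log2 fold change of 0.97 ± 0.22 (edgeR adjusted p = 0.253). In excitatory nuclei Camk2n1 rose by 0.83 ± 0.11 (edgeR adjusted p = 0.00704) and in Sst nuclei by 1.05 ± 0.23 (edgeR adjusted p = 0.0431). Slc25a4, the mitochondrial ADP/ATP carrier gene, had 118, 127, 66 and 38 UMIs and a log2 fold change of 0.86 ± 0.21, beside a rise of 0.72 ± 0.12 in excitatory nuclei (edgeR adjusted p = 0.0169). The synaptic vesicle gene Syngr3 (111, 115, 56 and 45 UMIs) and the proton pump subunit gene Atp6v1g2 (94, 86, 47 and 28 UMIs) had log2 fold changes of 0.78 and 0.89, and rose by 0.93 and 0.70 in excitatory nuclei (edgeR adjusted p = 0.00792 and 0.0286). In bulk cortex the log2 fold changes of Camk2n1, Slc25a4, Syngr3 and Atp6v1g2 were -0.12, 0.04, 0.13 and 0.08, none of which passed the test, and E530001K10Rik was not tested there.

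Nr2f2, a factor that marks the caudal lineage, was among the same 10 genes. It had 189, 191, 112 and 72 UMIs, in 73, 87, 54 and 39 nuclei, with a log2 fold change of 0.68 ± 0.18 (edgeR adjusted p = 0.511). The nuclei led by the Lamp5 list held 148, 119, 74.0 and 71.8 CPM of Nr2f2 and those led by the Vip list 164, 173, 141 and 106 CPM, so that the Trim28-KO animals were the higher ones within both. In bulk cortex Nr2f2 was at 13.5, 14.0 and 9.83 CPM in Trim28-KO and 12.6, 14.5 and 13.1 CPM in control. The others were Fam46a (log2 fold change 1.16), Psma1 (0.83), Plpp6 (2.20, from 18, 19, 3 and 3 UMIs) and Nusap1 (2.73, from 13, 23, 4 and 0 UMIs).

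Among the genes of smallest p with lower values in Trim28-KO, several rested on few nuclei. Sox6, a transcription factor of the medial lineage, had 17, 15, 58 and 34 UMIs and a log2 fold change of -1.88 ± 0.32 (edgeR adjusted p = 0.101). These came from 6, 7, 5 and 6 nuclei, with up to 21 UMIs in 1 nucleus, whereas the other GABAergic nuclei held 860, 807, 922 and 958 CPM. Rorb, a nuclear receptor of layer 4 excitatory neurons, had 8, 20, 42 and 55 UMIs and a log2 fold change of -2.19 ± 0.38 (edgeR adjusted p = 0.101), with 25 UMIs in 1 nucleus of each control. In excitatory nuclei Rorb was at 235, 303, 430 and 447 CPM and fell by 0.75 (edgeR adjusted p = 0.0183). In the kept nuclei that met neither the GABAergic nor the excitatory rule, Rorb was higher, at 540, 587, 709 and 609 CPM. Gpc5, a glypican gene, had 18, 29, 45 and 59 UMIs (-1.54 ± 0.32), of which 24 and 18 came from 1 nucleus in each control. It was at 128, 144, 127 and 93.3 CPM in excitatory nuclei and at 1368, 1217, 1324 and 1006 CPM in the nuclei of neither class. Tiam2 had 15, 10, 46 and 21 UMIs, of which 20 came from 1 nucleus of control animal 64. Whether the Adarb2/Vip nuclei with many UMIs of these genes held RNA of another cell was not tested.

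Tmem132d was found in more nuclei than these 4 genes in every animal. It encodes a transmembrane protein and had 143, 174, 221 and 191 UMIs in 50, 66, 63 and 54 nuclei, or 119, 134, 205 and 228 CPM, with a log2 fold change of -0.77 ± 0.17 (edgeR adjusted p = 0.253). It fell by 1.14 ± 0.12 in excitatory nuclei (edgeR adjusted p = 0.00344) and by 0.77 ± 0.10 in bulk cortex (edgeR adjusted p = 0.00205), and the Adarb2/Vip effect minus the excitatory effect was 0.35 ± 0.16 (edgeR adjusted p = 0.463). Frem1, which was among the genes of highest ratio above, had 67, 99, 132 and 118 UMIs in 16, 28, 19 and 19 nuclei, with a log2 fold change of -0.98 ± 0.20 (edgeR adjusted p = 0.239). The sialyltransferase gene St6galnac5 had 36, 26, 61 and 55 UMIs and a log2 fold change of -1.28, and Igfbp5, an insulin-like growth factor binding protein gene, had 13, 9, 28 and 28 UMIs in 10, 8, 14 and 14 nuclei and -1.72. In bulk cortex St6galnac5 fell by 0.75 (edgeR adjusted p = 0.0244), and Igfbp5 by 0.47 (edgeR adjusted p = 0.0155), which was under the threshold of 0.5 for a call there. The remaining genes were Itih5 (0, 1, 12 and 12 UMIs, in 0, 1, 4 and 6 nuclei) and A330008L17Rik (-1.02).

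**Figure D3:**
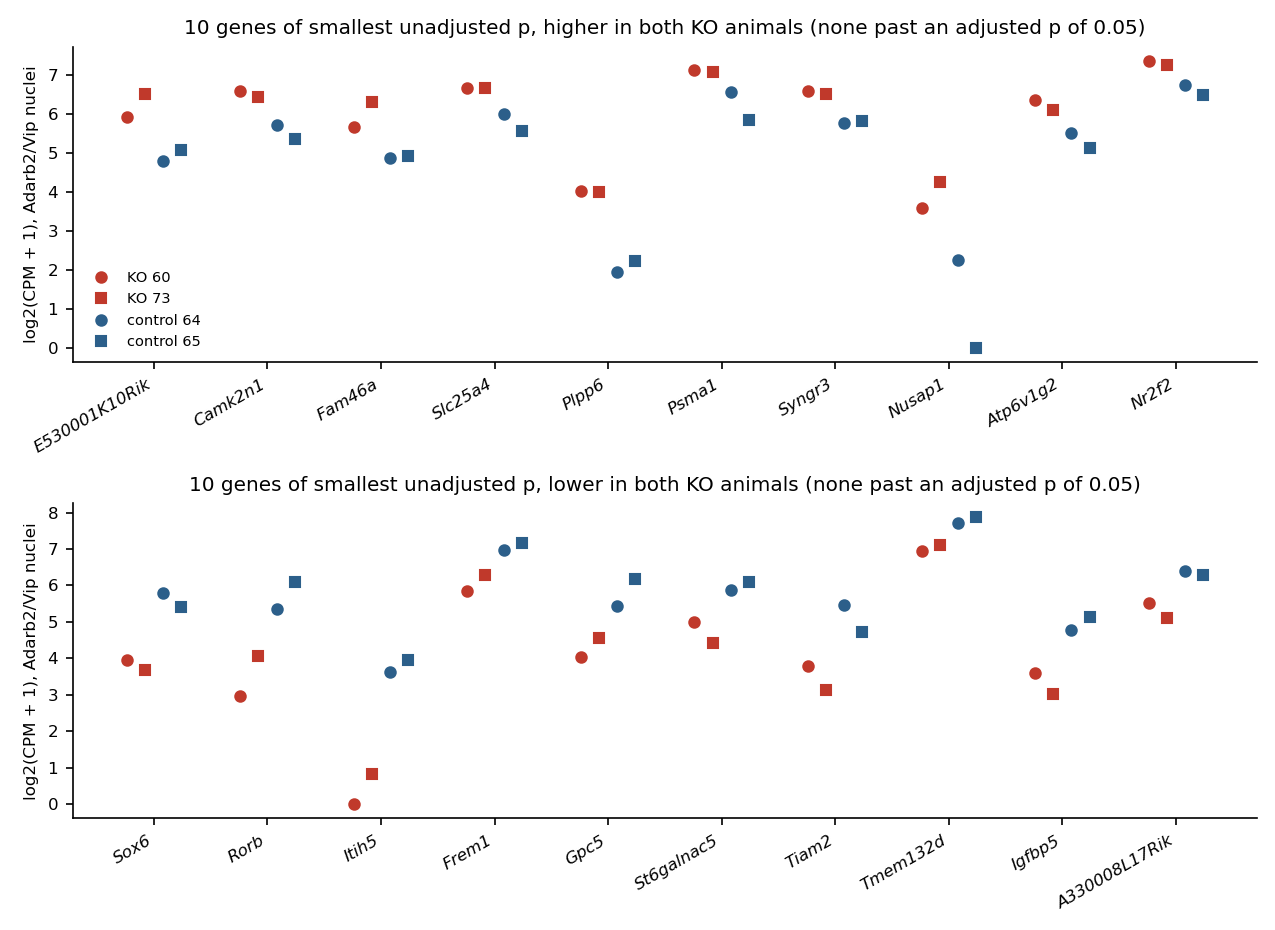
The 10 genes of smallest unadjusted p in each direction in Adarb2/Vip nuclei, as log2(CPM + 1) with 1 point per animal, Trim28-KO and control in different colours. The groups do not overlap for any of the 20 genes, as the choice required, and no gene passed an adjusted p of 0.05.

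The lists that describe these cells gave no call either. The count beside which each list stands is that over all 9939 genes, of which 1919 (19.3%) were higher in both Trim28-KO animals and 1867 (18.8%) lower, at a median log2 fold change of 0.00. Of the caudal identity genes, Nr2f2, Nr2f1 and Sp9 lay higher in both Trim28-KO animals, with log2 fold changes of 0.68 ± 0.18, 0.33 ± 0.19 and 0.75 ± 0.40, and the groups overlapped for Prox1, Npas1 and Sp8 (0.06 ± 0.17, 0.27 ± 0.21 and 0.09 ± 0.46). Of the 7 genes of the Vip list 5 were tested, 3 lay lower in both Trim28-KO animals (Vip, Crh and Penk), with a median of -0.44. Vip was a rule gene and had 358, 307, 454 and 450 CPM. Its own log2 fold change is the median of -0.44, so that this median and the place of Vip in the count are a description. Crh, the corticotropin-releasing hormone gene, had 56, 42, 58 and 72 UMIs and a log2 fold change of -0.80 ± 0.27 (edgeR adjusted p = 0.57). Of the 7 genes of the Lamp5 list 2 lay higher (Lamp5 and Ndnf, by 0.42 and 0.51), with a median of 0.15. The Sncg list had 4 genes tested, 1 of them (Cck) higher, and a median of 0.27. The Vip list led in 22.9 and 19.1% of the nuclei in Trim28-KO and in 27.0 and 34.3% in control, and the part of this make-up in the medians was not tested. Within the nuclei led by the Vip list, Vip was at 1512 and 1434 CPM in Trim28-KO and at 1455 and 1337 CPM in control.

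The genes of inhibitory transmission showed small differences. The genes of the GABA-synthesising enzymes, Gad1 and Gad2, had log2 fold changes of 0.18 ± 0.15 and 0.05 ± 0.14. Both are rule genes, so that these values are a description. Abat, whose enzyme breaks GABA down, had a log2 fold change of 0.05 ± 0.18. Slc32a1, the vesicular GABA transporter gene, was at 146, 120, 148 and 95.4 CPM, with a log2 fold change of 0.10 ± 0.20. Of 14 GABA receptor and scaffold genes tested 2 lay lower in both Trim28-KO animals (Gabrg3 and Gphn) and none higher, with a median of -0.12. The medians of this list in excitatory, Sst and Pvalb nuclei were -0.16, -0.36 and -0.17. Of 17 glutamate receptor genes 9 lay lower and none higher, with a median of -0.11. Among them Grin1, the obligatory NMDA receptor subunit gene, had a log2 fold change of -0.42 ± 0.14, Grm7 one of -0.50 ± 0.16 and Grik3 one of -0.93 ± 0.33 (edgeR adjusted p = 0.57 for each, named after their values were seen). In excitatory nuclei 11 of the 17 lay lower, with a median of -0.21, beside 28.8% of all genes tested there. In Sst nuclei 13 of the 17 lay lower (median -0.30), beside 1752 of all 7812 genes tested. In Pvalb nuclei 10 lay lower (median -0.29), beside 2334 of 10211, so that the lower values were not particular to the Adarb2/Vip nuclei.

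Genes of excitability and adhesion behaved in the same range. Of 24 ion channel genes 8 lay lower and 1 higher in both Trim28-KO animals, with a median of -0.09. Kcnip4, which encodes a potassium channel subunit, was the higher one at 9137, 8221, 7448 and 7924 CPM (0.18 ± 0.11). Of 43 adhesion and synapse genes 14 lay lower and 1, Adgrl3, higher, with a median of -0.10, and Erbb4, the neuregulin receptor gene, was at 7874, 7218, 7123 and 7801 CPM (0.02 ± 0.11). In excitatory, Sst and Pvalb nuclei the medians were -0.17, -0.20 and -0.14 for the ion channel genes. For the adhesion and synapse genes they were -0.21, -0.24 and -0.19. Of 14 neuromodulator receptor genes 4 lay lower (Chrna4, Chrna7, Chrm3 and Vipr1) and none higher, with a median of -0.19. Their list had medians of -0.40, -0.32 and -0.25 in excitatory, Sst and Pvalb nuclei. The 9 neuropeptide genes had a median of 0.03 with 3 on each side, among them the rule genes Sst (higher) and Vip (lower).

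Of 21 partners of Trim28 and related silencing genes 18 were tested and none was called, with a median log2 fold change of -0.03. Setdb1, the methyltransferase recruited by Trim28, had normalised levels of 58.7 and 66.5 CPM in Trim28-KO and 89.4 and 94.7 CPM in control (-0.55 ± 0.20, edgeR adjusted p = 0.57). Zfp57, a zinc finger protein gene that acts at imprinted loci, had 47.6, 29.7, 24.5 and 17.004 CPM (0.86 ± 0.33, edgeR adjusted p = 0.596). Both genes are named because of their values. Of 25 imprinted genes tested 10 lay higher and 2 lower, with a median of 0.07. Rtl1, a retrotransposon-derived gene, had 18.7, 25.04, 12.2 and 4.86 CPM (1.28 ± 0.44, edgeR adjusted p = 0.57), and Inpp5f 85.9, 95.5, 60.3 and 60.7 CPM (0.59 ± 0.20). Of 29 genes of interferon response and nucleic acid sensing in the matrices only Ifi27, Stat2 and H2-D1 had enough UMIs for a test, and of the 54 clustered protocadherin genes none did.

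Activity-induced genes and mitochondrial transcripts had medians above that of all genes, and no gene of either list was called. Of 13 activity-induced genes tested 3 lay higher and 1, Npas4, lower, with a median of 0.28. Over all genes tested 19.3% lay higher and 18.8% lower. The same list had a median of 0.81 in excitatory, 0.86 in Sst and 0.60 in Pvalb nuclei. Junb had normalised levels of 21.3, 27.4, 6.59 and 19.4 CPM (0.98 ± 0.42) and Npas4 of 1.70, 6.26, 9.41 and 13.4 CPM (-1.44 ± 0.60), with edgeR adjusted p of 0.644 and 0.626. The 11 mitochondrial genes had a median of 0.55, and 1 of them lay higher in both Trim28-KO animals. The 4 animals had 0.335, 0.157, 0.144 and 0.183% mitochondrial UMIs, so that Trim28-KO animal 60 stood apart. In excitatory, Sst and Pvalb nuclei the medians of the mitochondrial genes were 0.67, 0.62 and 0.71. The part of RNA quality in the other differences was not tested.

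The genes that rose most in excitatory nuclei had few UMIs in the Adarb2/Vip nuclei of both groups. The 10 largest rises in excitatory nuclei were those of She, RP23-59P20.3, Draxin, Gm20711, Gm5934, Gm13016, Gm37020, 4930519L02Rik, Hoga1 and Pcdha1, and all 10 had too few UMIs in the Adarb2/Vip nuclei for a test. Together they had 18 and 18 UMIs in the Adarb2/Vip nuclei of Trim28-KO and 6 and 4 in control. At the level of the excitatory nuclei of the same animals, the Adarb2/Vip nuclei of Trim28-KO would have held 307 and 271. Gm20711 was at 130 and 85.2 CPM in excitatory nuclei of Trim28-KO and had 4 and 5 UMIs in the Adarb2/Vip nuclei there, and 1 and 0 in control. Draxin, a secreted axon guidance factor gene on chromosome 4 (GRCm38, 148098437 to 148130698, minus strand), was at 10.2 and 11.6 CPM in excitatory nuclei of Trim28-KO and at 0.352 and 0.355 CPM in control, and had 1, 3, 2 and 0 UMIs in the Adarb2/Vip nuclei. Pcdha1, a clustered protocadherin gene, was at 18.3, 17.7, 0.845 and 1.07 CPM in excitatory nuclei, and had 2, 4, 1 and 3 UMIs in the Adarb2/Vip nuclei. A count of 3 UMIs corresponds to 2.31 to 3.58 CPM per animal here. Since the 10 genes were chosen on their excitatory values and were too low for a test in the Adarb2/Vip nuclei, no test of the difference between the classes is given for them.

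**Figure D4:**
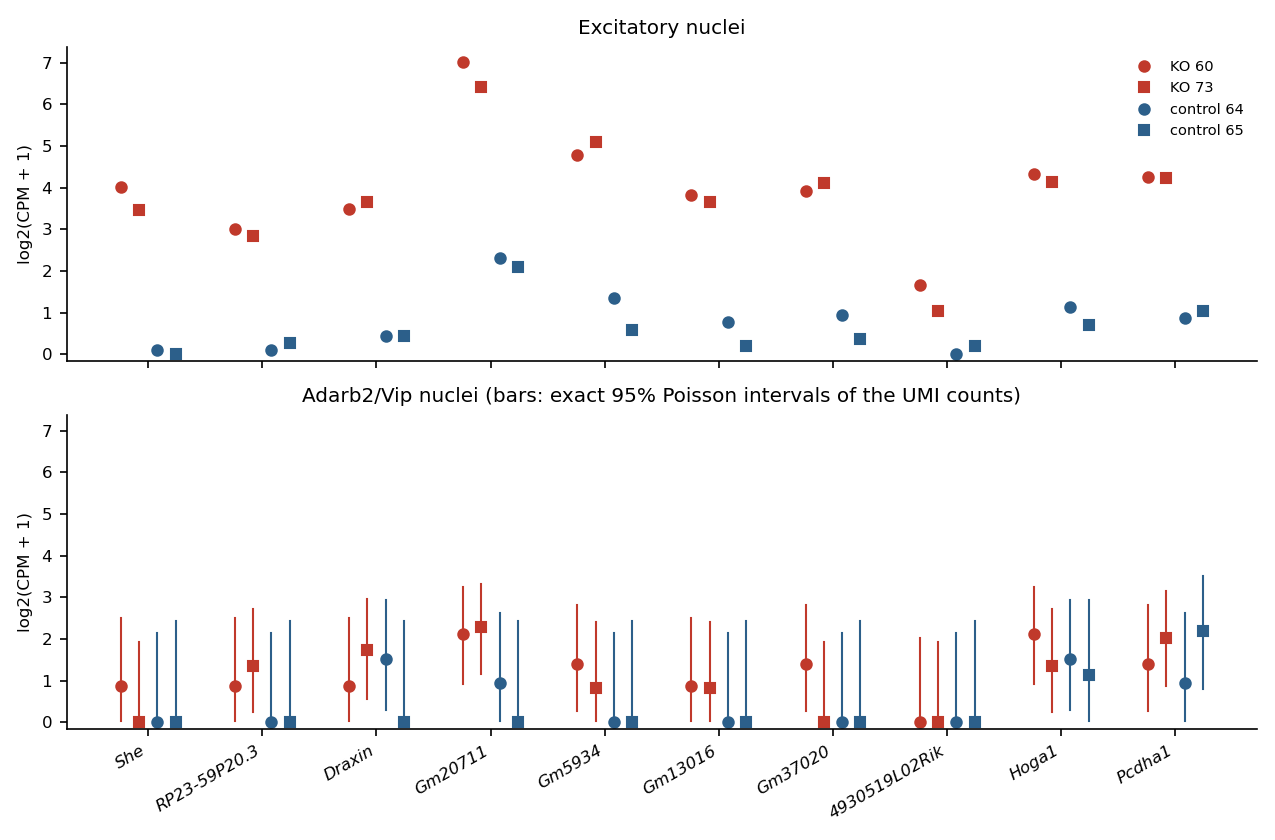
The 10 genes with the largest rise in excitatory nuclei, as log2(CPM + 1) per animal in excitatory and in Adarb2/Vip nuclei, Trim28-KO and control in different colours. Gm20711 was at 130 and 85.2 CPM in excitatory nuclei of Trim28-KO and at 3.33 and 3.86 CPM in the Adarb2/Vip nuclei of the same animals.

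Across all genes called in excitatory nuclei, the Adarb2/Vip nuclei had smaller medians of the same sign. Of the 646 genes called higher there, 484 were tested in the Adarb2/Vip nuclei, with a median log2 fold change of 0.38 against 0.81 in excitatory nuclei. Of these, 107 had an unadjusted p of edgeR under 0.05 in that direction, beside 394 of all 9939 genes tested (3.96%). The medians of the genes called higher were 0.63 in Sst and 0.52 in Pvalb nuclei. Of the 570 called lower, 421 were tested, with a median of -0.18 against -0.77. Of these, 58 had an unadjusted p of edgeR under 0.05 in that direction, beside 360 of all 9939 genes tested (3.62%). The medians of the genes called lower were -0.38 in Sst and -0.30 in Pvalb nuclei. All classes come from the same 4 animals, and the genes were chosen on their excitatory values, so that these medians and counts carry no test.

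The KO effect itself differed between Adarb2/Vip and excitatory nuclei for 183 of 14889 genes, in a fit with the animal as a block. The effect in Adarb2/Vip nuclei was above that in excitatory nuclei for 98 genes (0.658%) and below it for 85 (0.571%). These counts include the rule genes Adarb2 (0.59) and Vip (-0.79). The nuclei were chosen on their UMIs, so that their differences are a description and carry no test. Of the 183 genes, 173 also had enough UMIs for a test in the Adarb2/Vip nuclei (94 above and 79 below), and the other 10 entered through the excitatory sums. Without the replicate block 2 genes were past the threshold, Thsd7b and Hunk. Of the 183 genes, 41 were among the 638 genes of this fit called higher in excitatory nuclei, and 82 among the 565 called lower there. Both the calls and this fit use the same excitatory sums, so that the overlap was built in and carries no test.

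Thsd7b (GRCm38 chromosome 1, 129273302 to 130219278, plus strand), which encodes a thrombospondin-domain protein, had 350, 240, 141 and 150 UMIs in the Adarb2/Vip nuclei, or 292, 185, 131 and 179 CPM. Its log2 fold change was 0.63 ± 0.21 there (edgeR adjusted p = 0.57) and -1.83 ± 0.22 in excitatory nuclei (edgeR adjusted p = 0.00577), where it was at 48.7, 30.9, 117 and 157 CPM. The difference was 2.44 ± 0.15 (edgeR adjusted p = 5.21e-16). Hunk, a kinase gene, had 34, 51, 36 and 38 UMIs in the Adarb2/Vip nuclei (-0.19 ± 0.28) with overlapping groups. In excitatory nuclei it was at 13.9, 11.4, 83.6 and 68.5 CPM and fell by 2.63 ± 0.15 (edgeR adjusted p = 0.000349), a difference of 2.44 ± 0.28 (edgeR adjusted p = 2.31e-07).

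Further genes fell in excitatory nuclei and did not pass the test in the Adarb2/Vip nuclei. The phosphatase gene Inpp4b was at 183, 169, 143 and 81.1 CPM in the Adarb2/Vip nuclei and at 34.7, 33.2, 75.9 and 57.4 CPM in excitatory nuclei. Sema5a, a semaphorin gene of axon guidance, was at 292, 309, 297 and 271 CPM against 16.8, 7.09, 43.6 and 29.4 CPM in excitatory nuclei. Cdh18, a cadherin gene, was at 152, 163, 200 and 159 CPM against 316, 217, 800 and 755 CPM. The differences of effect were 1.65 ± 0.17 for Inpp4b, 1.77 ± 0.21 for Sema5a and 1.41 ± 0.17 for Cdh18, with edgeR adjusted p of 9.23e-09, 2.31e-07 and 5.12e-07. None of these 3 passed without the replicate block (edgeR adjusted p = 0.0741, 0.224 and 0.0782).

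In the other direction, genes rose in excitatory nuclei and did not pass the test in the Adarb2/Vip nuclei. Rgs10, a regulator of G protein signalling, was at 22.6, 22.5, 4.65 and 6.61 CPM in excitatory nuclei and at 64.97, 52.4, 46.3 and 62.0 CPM in the Adarb2/Vip nuclei, where the groups overlapped. In bulk cortex Rgs10 rose by 1.06 ± 0.11 (edgeR adjusted p = 0.000291). Gm26573 was at 86.5, 74.2, 22.9 and 15.5 CPM in excitatory nuclei and at 32.5, 33.9, 45.4 and 20.3 CPM in the Adarb2/Vip nuclei, and Ubash3b at 18.2, 15.9, 6.34 and 10.2 CPM against 301, 272, 311 and 323 CPM. Arhgap31, a GTPase-activating protein gene, had 23, 20, 39 and 37 UMIs in the Adarb2/Vip nuclei (-1.20 ± 0.31) and rose by 1.29 ± 0.25 in excitatory nuclei. The differences of effect were -1.86 ± 0.25 for Rgs10, -2.03 ± 0.28 for Gm26573, -1.18 ± 0.18 for Ubash3b and -2.51 ± 0.30 for Arhgap31 (edgeR adjusted p = 5.62e-06, 6.64e-06, 4.05e-05 and 3.91e-07), and without the replicate block their adjusted p was 0.0741, 0.107, 0.239 and 0.0741.

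**Figure D5:**
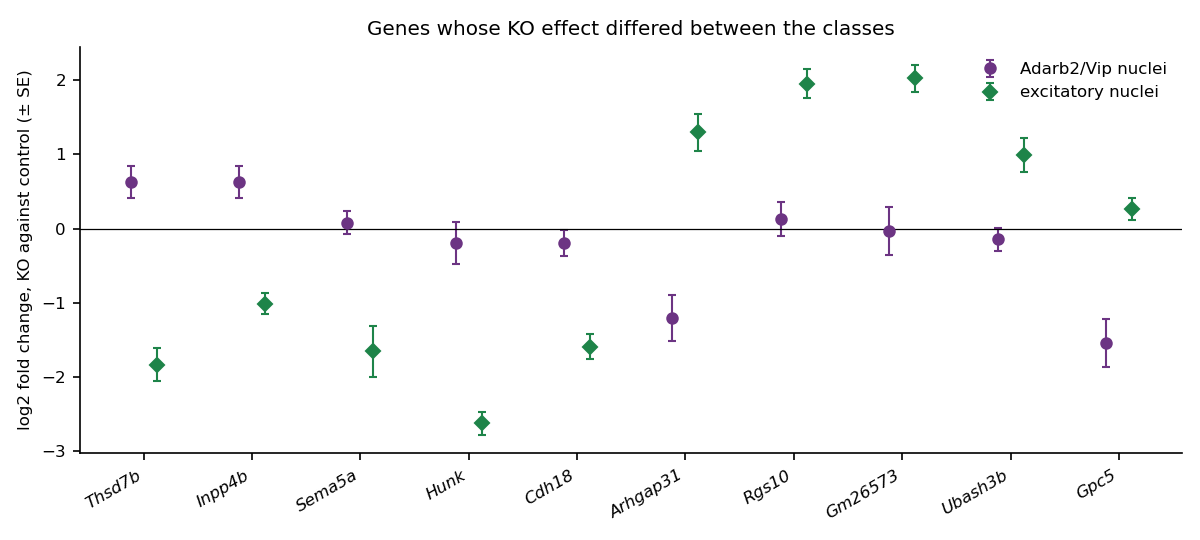
Log2 fold change of Trim28-KO against control (± SE) in Adarb2/Vip and in excitatory nuclei for the genes whose effect differed between the classes in the fit with the animal as a block. Thsd7b lay at 0.63 in Adarb2/Vip and -1.83 in excitatory nuclei, and Rgs10 at 0.13 and 1.95.

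Against the other interneuron classes few genes differed. The KO effect in Adarb2/Vip nuclei was above that in Sst nuclei for 12 genes (0.123%) and below it for 2 (0.0205%) of 9771, and above that in Pvalb nuclei for 2 (0.0183%) and below it for 2 (0.0183%) of 10921. Without the replicate block edgeR called 0 genes against either class, with 426 and 372 at an unadjusted p under 0.05. Erbb4 had a log2 fold change of 0.02 ± 0.11 in the Adarb2/Vip nuclei and fell by 2.06 ± 0.37 in Sst nuclei (edgeR adjusted p = 0.0188), a difference of 1.97 ± 0.28 (edgeR adjusted p = 5.01e-05). Slc4a4, a sodium bicarbonate transporter gene, was at 137, 106, 112 and 131 CPM in the Adarb2/Vip nuclei (0.00 ± 0.19) and fell by 1.63 ± 0.28 in Sst nuclei (edgeR adjusted p = 0.016), a difference of 1.58 ± 0.29 (edgeR adjusted p = 0.00366). Sst nuclei numbered 57, 59, 34 and 59.

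In bulk cortex the marker and subclass genes of the Adarb2/Vip nuclei did not pass the test. Of 31 marker and subclass genes 29 were tested and edgeR called 0, with 0 at an unadjusted p under 0.05, whereas 140 genes (0.860%) were called higher and 76 (0.467%) lower of 16271. DESeq2 called 0 as well, with 1 at an unadjusted p under 0.05. Without Trim28-KO animal 60 edgeR called 1 of them, Cck. Some of these genes are not particular to the lineage, so that bulk cortex also reports other cells for them. In excitatory nuclei Cck was at 165, 148, 116 and 92.8 CPM and Lamp5 at 101, 110, 53.5 and 43.8 CPM, whereas Prox1 was at most at 0.564 CPM. Adarb2 was at 14.04, 12.97 and 12.05 CPM in Trim28-KO and 12.4, 12.2 and 13.3 CPM in control, a log2 fold change of 0.04 ± 0.12. Vip was at 74.7, 73.4 and 62.1 CPM against 73.8, 71.7 and 80.6 CPM (-0.10 ± 0.10), and Prox1 at 15.6, 11.5 and 13.4 CPM against 14.2, 15.1 and 15.2 CPM (-0.14 ± 0.13). The groups overlapped for each of the 3 genes. In bulk tissue fewer cells of a type and less RNA per cell cannot be told apart.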

How the data were processed

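Nuclei counts and bulk gene counts were used as deposited. Per the study's methods, the authors made the nuclei counts with Cell Ranger 3.0 at default settings and a pre-mRNA mm10 reference. Per the file headers and the submitters' processing notes, the bulk counts were made with featureCounts (Subread 1.6.3), and these notes also name STAR 2.6.0 and GRCm38.p6. Depth varied between animals, and intervals cover counting error only.

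Nuclei were kept when their log10 number of detected genes differed from the median of the animal by at most 3 median absolute deviations, and no doublet caller was run. UMIs of a class were summed per animal, since nuclei are not replicates, and tested with edgeR 4.0.16 (R 4.3.3; filterByExpr, TMM, quasi-likelihood F-test, Benjamini-Hochberg adjustment over all genes tested). Bulk calls also needed an absolute log2 fold change above 0.5. Differences between classes were tested as an interaction of class and genotype with the animal as a block, since both sums come from the same animal. Excitatory nuclei had Slc17a7+Neurod6 at 3 UMIs or more and above Gad1+Gad2, and Sst and Pvalb nuclei followed the rule of the Adarb2/Vip nuclei with their own markers. DESeq2 1.42.0 served as an alternative. For shares, exact permutation tests over animals were used, and nuclei were also thinned to 4000 UMIs.

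Genes were named by rule. These were Trim28, Emx1 and the rule genes, called or most abundant members of the gene lists, the 10 genes of smallest p in each direction with non-overlapping groups, the 10 largest changes in each direction in excitatory nuclei, the 5 smallest p in each direction of each interaction, and the 15 highest ratios to other GABAergic nuclei. Genes outside it were named after their values were seen, as stated beside some of them. The nuclei, lists and tests were chosen with earlier results of these data known. The edgeR step was tested on simulated data. Alternatives were other scalings, no filters, a minimum of 5 UMIs, thinning, leaving out nuclei or animals and omitting the block. Of the per-sample columns, 0 were left unmapped. Gene coordinates are from GENCODE vM21 on GRCm38. Some members of the gene lists are not reported here.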

Additional observations from a re-analysis of the deposited data

Results flagged for a closer look

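Each result here was singled out because the effect of Trim28-KO differed between Adarb2/Vip nuclei and another class in the interaction test of edgeR with the animal as a block, at an adjusted p under 0.05. All values are the log2 fold change in Adarb2/Vip nuclei minus that in the other class.

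Against excitatory nuclei the difference was 2.44 for Thsd7b, 1.65 for Inpp4b, 1.77 for Sema5a, 2.44 for Hunk and 1.41 for Cdh18. It was -2.51 for Arhgap31, -1.86 for Rgs10, -2.03 for Gm26573, -1.18 for Ubash3b and -1.82 for Gpc5. Thsd7b and Hunk also passed without the block. Gpc5 had 24 of 45 and 18 of 59 UMIs in 1 nucleus of each control.

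Against Sst nuclei the difference was 1.85 for Thsd7b, 1.97 for Erbb4, 2.93 for Zfp804b, 1.51 for Kcnip4 and 1.58 for Slc4a4, and it was -1.58 for Sox6 and -1.37 for Rnf144b. Zfp804b was at 1462, 1403, 1435 and 947 CPM in the Adarb2/Vip nuclei (log2 fold change 0.26 ± 0.16) and fell by 2.75 ± 0.61 in Sst nuclei. Rnf144b, a ubiquitin ligase gene, had 107, 60, 57 and 99 UMIs in the Adarb2/Vip nuclei, with overlapping groups, and rose by 0.96 ± 0.21 in Sst nuclei. Control animal 64 had 34 Sst nuclei.

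Against Pvalb nuclei the difference was 0.76 for Kcnip4 and 2.12 for Grin3a, and it was -1.71 for Sox6 and -12.97 for Gm37267. Grin3a took part in the rule that chose the nuclei. Gm37267 was too low for a test in the Adarb2/Vip nuclei, with 14 UMIs, all in 1 nucleus of control animal 64, and in the other GABAergic nuclei it was found in Trim28-KO animal 73 alone, at 17.1 CPM. Its value therefore rests on at most 1 animal in each class, depends on the prior count and carries no comparison. Without the block none of the differences from Sst or Pvalb nuclei passed, and the adjusted p of edgeR was then 0.14 to 1.00 over them.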

How the results depend on the processing

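Between Trim28-KO and control animals no paired analysis was possible because the animals of the groups share no number, while each animal paired its own classes. The count of 0 genes in Adarb2/Vip nuclei became 35 without a filter on low counts (16 higher, 19 lower), 1 after thinning (Tiam2) and 9 to 350 with 1 animal left out, where the lone animal is assumed to vary like the other group. In alternatives chosen after seeing the data it became 2 without nuclei with a shared barcode (Rorb and Sox6) and 10 in nuclei led by the Vip list. It remained 0 with other scalings, with DESeq2, without the quality filter, at 5 UMIs, without nuclei with markers of another class and in nuclei led by the Lamp5 list. Without the replicate block the interactions with excitatory, Sst and Pvalb nuclei gave 2, 0 and 0 genes. That with excitatory nuclei gave 121 genes with their sums thinned and 48 to 148 with 1 animal left out. Excitatory nuclei gave 514 calls at the depth of the Adarb2/Vip nuclei. The difference in share was 6.47 percentage points of GABAergic nuclei and 0.0581 of neurons. In bulk cortex 0 to 1 of the marker and subclass genes were called with 1 animal left out.

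Of the log2 fold changes of single genes in Adarb2/Vip nuclei, 24 values turned sign. These were Sema5a at -0.0233 without nuclei with markers of another class, and Hunk at 0.32, Erbb4 at -0.0318 and Slc4a4 at -0.17 after thinning. In nuclei led by the Vip list Hunk was at 0.20 and Erbb4 at -0.26, and in those led by the Lamp5 list Slc4a4 was at -0.11 and Rnf144b at 0.46. Gm26573 was at 0.00406 with DESeq2, and Slc4a4 at -0.000212 with DESeq2 size factors and at -0.0554 with a minimum of 5 UMIs. With 1 animal left out the values ran from -0.00816 to 0.10 for Trim28, -0.45 to 0.0364 for Hunk, -0.0829 to 0.35 for Rgs10, -0.44 to 0.71 for Gm26573, -0.0476 to 0.0917 for Erbb4, -0.20 to 0.19 for Slc4a4 and -0.85 to 0.36 for Rnf144b. The cause was not tested. The smallest sum held 838603 UMIs, and genes under the filter on low counts could not be tested at this depth.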

Other observations

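Several peptide and transmitter genes differed between the groups of Adarb2/Vip nuclei led by each list. Npy, which encodes neuropeptide Y, was at 496, 557, 834 and 300 CPM in the nuclei led by the Lamp5 list and at 58.8 to 153 CPM in those led by the Vip list. Chat, the choline acetyltransferase gene, had 16, 8, 6 and 4 UMIs in all Adarb2/Vip nuclei, and 16, 8, 5 and 4 of these lay in the nuclei led by the Vip list. Slc17a8, a vesicular glutamate transporter gene, had 1, 19, 3 and 10 UMIs, of which 0, 19, 3 and 10 lay in the nuclei led by the Sncg list, but these came from 1, 2, 1 and 1 nuclei in all. Since the lists hold these genes, the values are a description.

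Adarb2 itself differed between the groups of nuclei. It was at 19401, 19868, 22579 and 31669 CPM in the nuclei led by the Sncg list, at 13748, 13324, 11929 and 18346 CPM in those led by the Vip list and at 8139, 8033, 8174 and 8988 CPM in those led by the Lamp5 list, an order that held in all 4 animals. Npas1, a transcription factor gene, was at 125 to 363 CPM in the nuclei led by the Sncg list and at 17.9 to 38.7 CPM in those led by the Lamp5 list. Sp8, a transcription factor gene of the caudal lineage, had 15, 18, 19 and 5 UMIs in the Adarb2/Vip nuclei and 0 in every Sst, Pvalb and excitatory sum. Meis2, which marks striatal and olfactory interneurons, reached 3 UMIs in 4, 0, 3 and 1 Adarb2/Vip nuclei.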
